A study of Mus musculus with 118 samples.

Results

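The protocadherin family was taken as every entry of the count table whose symbol begins with Pcdh, which gave 71 of 23998 genes. Of these, 59 belong by their symbol to the 3 gene clusters, as 15 alpha, 22 beta, 12 gamma A, 7 gamma B and 3 gamma C members, and 12 are non-clustered. Single cells were measured by Patch-seq, in which a neuron is recorded with a glass pipette and its cytosol is then drawn into the pipette and made into a sequencing library. The cells came from the neocortex of adult male and female SOM-Cre/Ai9 mice, in which Cre under control of the somatostatin locus switches on the red tdTomato reporter of the Ai9 allele, so that cells which express somatostatin, or once did, are labelled. Every group carried both alleles and none was treated, and groups differed in area (primary visual cortex, V1, or primary somatosensory cortex, S1) and in layer (L4 or L5). The labels held 44 V1 and 39 S1 cells of L4, and 19 V1 and 16 S1 cells of L5. SOM-Cre lines also label some fast-spiking cells, so a cell was kept only where it had at least 1500 genes with a count above 0, a summed count of Gad1 and Gad2 not below that of Slc17a7, and a count of Sst, the somatostatin gene, above 0.

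In L4, 42 cells of V1 and 34 of S1 were kept, and in L5, 17 cells of V1 and 16 of S1. Their total counts ran from 97904 to 3295232, with group medians between 1015270 and 1199870. The 4 GABAergic marker genes summed to between 4198 and 4611 CPM (counts scaled to a library of 1000000) when the cells of a group were pooled, and the 5 excitatory marker genes to between 193 and 363 CPM. Animals are not named in the labels. The cells of an area and layer therefore counted as a single sample, without a p-value. The spread of a difference is given as its SD over recording days, taking the date in the label as the day, and intervals (95%) cover counting error only. The study describes fewer mice than the labels hold dates, so the days cannot all be separate animals. Which days share an animal is not known, and the SD over days may not be a spread between animals. L5 cells came only from the first of 2 series of recording days, so layers were compared within that series. Recording days 1 and 2 of that series held L4 cells only. These cells are part of the layer differences over all cells and within each area, so those differences are not matched by day. In 2 cells over 30% of the genes read had fewer than 5 counts (32.7% in V1 L5 cell 15 and 32.2% in V1 L4 cell 17), against 6.05 to 27.2% in the other cells, and results that turn on these cells are given without them too.

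Clustered protocadherins are cell surface proteins of the cadherin superfamily that bind copies of themselves on neighbouring membranes, and neurons are known to express different sets of them, which lets a neuron tell its own branches from those of other cells. Each alpha and gamma member has its own promoter and a variable first exon, which is spliced to constant exons that its cluster shares, whereas each beta member is a gene of its own without shared exons. Most members are alternates, which are chosen by promoter choice in single neurons, and the C-type members at the ends of the alpha and gamma clusters are known to be expressed more uniformly. Non-clustered (delta) protocadherins are adhesion molecules that signal to the actin cytoskeleton.

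In the GENCODE M21 annotation of the GRCm38 (mm10) genome, the located alpha members lie on the forward strand of chromosome 18 between 36930184 and 37187661, the beta members between 37264938 and 37524479, and the gamma members between 37661793 and 37841873. Whether reads of the shared exons were counted was checked from the gene length that relates the 2 deposited tables, one of counts and one of RPKM (reads scaled to gene length and to the reads of the library). For 28 of 29 alpha and gamma members this length was within 10% of the variable exon alone. All exons together came to at least 1.71 times that length. Of 225 pairs of alpha members read in the same cell, 3 had equal counts, as had 5 of 553 gamma pairs.

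The number of members with at least 1 count (members read) was close between areas and layers. V1 L4 cells had 5 to 26 members read with a median of 14.5, and S1 L4 cells had 4 to 23 with a median of 14.5. In L5, V1 cells had 1 to 24 and S1 cells 6 to 21, both with a median of 14. The highest number, 26, was in V1 L4 cell 17, and no other cell had more than 25. The ranges overlapped over most of their width, and the mean over all kept cells was 14.1 ± 5.15 (SD over cells). The number followed how much of the transcriptome was recovered: across cells it rose with the number of genes read, r = 0.78 over all kept cells, where both numbers come from the same library. After every cell was thinned to 250000 reads, for which 3 L5 cells were too shallow, the medians were 13.5 in V1 and 13 in S1 for L4, and 14 in both areas for L5.

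**Figure D1:**
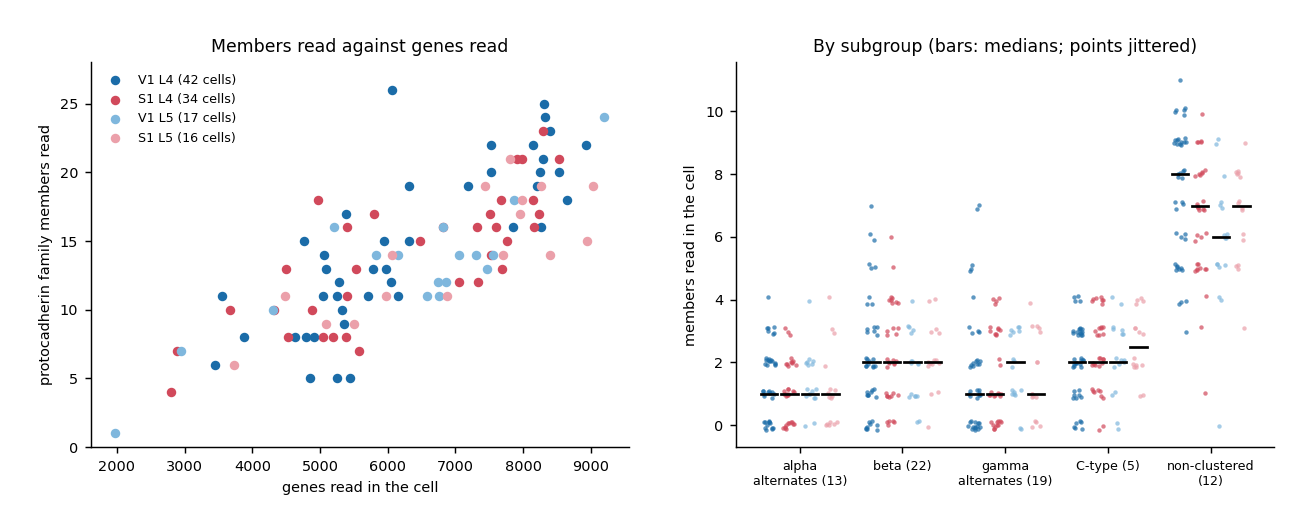
Left: members of the protocadherin family read in each kept cell (vertical axis) against all genes read in that cell (horizontal axis), with 1 point per cell coloured by area and layer. Right: members read per cell in each subgroup, with the size of the subgroup in brackets, groups from left to right as in the legend and black bars at the medians; the beta median is 2 in all 4 groups.

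Each set of alternates, with the beta members counted among them, gave a small part of its members to a cell. Of 22 beta members, a cell had a median of 2 read in every group, with at most 7 in V1 L4, 6 in S1 L4 and 4 in each L5 group. The medians stayed at 2 after thinning. No beta member was read in 17 cells, 1 in 22 cells, 2 in 31 cells and 3 or more in 39 cells. Of 13 alpha alternates the median was 1 in every group, and of 19 gamma alternates it was 2 in V1 L5 and 1 in the other groups. All 54 alternates together gave a median of 5 per cell. V1 L4 cell 17 held the highest number, 15, of which 11 had fewer than 5 counts, and without it and V1 L5 cell 15 the highest was 13.

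Across cells, alternates were read rarely and C-type members fell into a frequent and a rare set. Pcdhgc4, a gamma C-type isoform known for its part in the survival of cortical interneurons, was read in 85 kept cells (78.0%). Pcdhac2, the alpha C-type isoform that serotonergic axons need to spread evenly, was read in 69 cells (63.3%), and Pcdhgc5, a gamma C-type isoform of mature neurons, in 60 (55.0%). The remaining C-type members were within the range of the alternates, Pcdhac1 in 13 cells (11.9%) and Pcdhgc3 in 17 cells (15.6%). No alternate was read in more than 23 cells (21.1%, Pcdha5), and the median alternate was read in 10. After thinning to 250000 reads, Pcdhgc4 was read in 81, Pcdhac2 in 67, Pcdhgc5 in 56, Pcdhgc3 in 15 and Pcdhac1 in 12 cells.

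**Figure D2:**
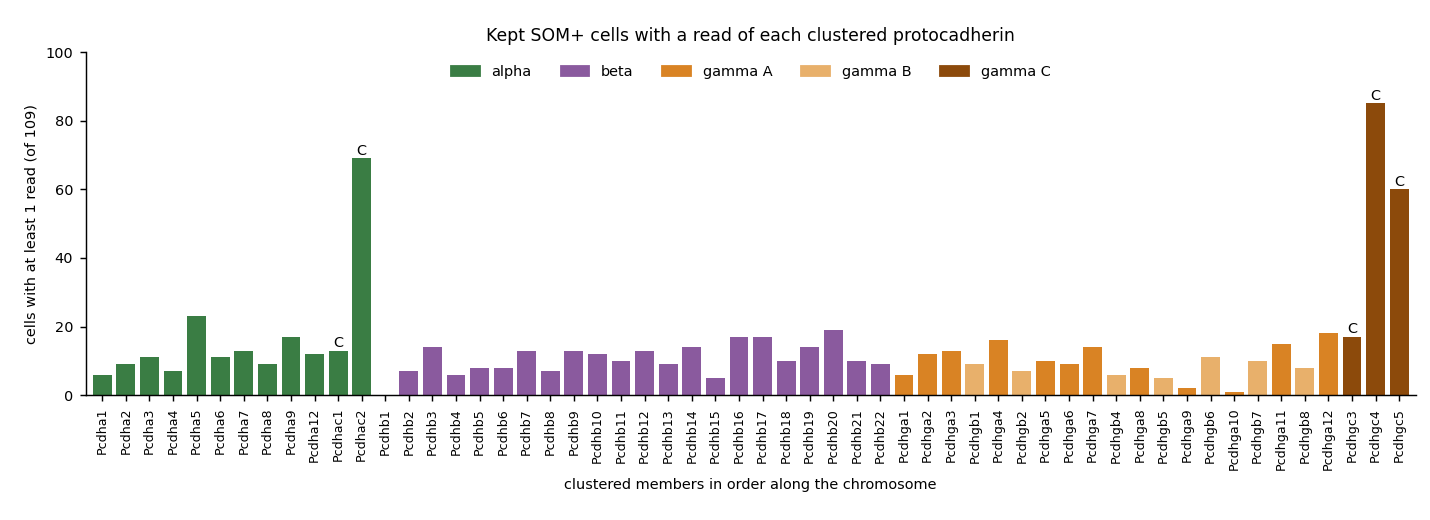
Number of kept cells with at least 1 read (bar height) for each clustered member that has 1 location in the annotation, in order along the chromosome and coloured by subgroup (Pcdha10, Pcdha11 and Pcdha4-g are not drawn); C marks the C-type members. Pcdhac2, Pcdhgc4 and Pcdhgc5 stand at 69, 85 and 60 cells, while no alternate passes 23.

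Of the 13 entries taken by their symbol as alpha alternates, 12 were read, in 6 to 23 cells each, and the entry Pcdha4-g was not. Pcdha5 was read most (23 cells), then Pcdha9 (17), Pcdha11 (14), Pcdha7 (13), Pcdha12 (12), and Pcdha3 and Pcdha6 (11 each). Of the beta members, Pcdhb20 was read in 19 cells, Pcdhb16 and Pcdhb17 in 17 each, Pcdhb3, Pcdhb14 and Pcdhb19 in 14 each, and Pcdhb7, Pcdhb9 and Pcdhb12 in 13 each. Pcdhb10 followed with 12 cells, and Pcdhb11, Pcdhb18 and Pcdhb21 with 10. Among gamma alternates, Pcdhga12 was read in 18 cells, Pcdhga4 in 16, Pcdhga11 in 15, Pcdhga7 in 14, Pcdhga3 in 13, Pcdhga2 in 12, Pcdhgb6 in 11, and Pcdhga5 and Pcdhgb7 in 10 each. A further 25 members were read in 1 to 9 cells, and Pcdha4-g and Pcdhb1, named after their values were seen, in none.

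Where an alternate was read, it was often read well. Of 553 pairs of an alternate and a cell with a read, 373 (67.5%) had at least 32 counts and 75 had fewer than 5. For C-type members 195 of 244 pairs (79.9%) had at least 32 counts, and for non-clustered members 589 of 738 (79.8%). Levels were compared between genes as RPKM, per length, and within the cells that had a read. On that scale the median over alternates was 24.4 RPKM, and the alternates ran from 1.82 to 45.0 RPKM. Pcdhac2 was at a median of 67.0 RPKM in its reading cells and Pcdhgc4 at 56.7, above every alternate. Pcdhgc5 was at 22.2, Pcdhac1 at 30.1 and Pcdhgc3 at 14.3 RPKM, within the range of the alternates.

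In a cell with at least 2 alpha alternates read, the leading member held a median of 70.0% of their counts (43 cells). For beta members this was 60.4% (70 cells) and for gamma alternates 57.5% (49 cells). C-type members held a median of 40.99% of the clustered counts of a cell, over all kept cells but the 1 without a clustered read.

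Cells rarely had the same alternates. All kept cells but 4 had an alternate read. Of 5460 pairs of such cells, 58.8% shared no alternate and 1 pair had the same set, while every other set occurred in a single cell. For the beta cluster alone, 71.9% of 4186 pairs shared no member and 11 pairs had identical sets. The overlap, as the number shared over the number read in either cell, averaged 0.055 over pairs of cells for alternates, 0.51 for C-type members and 0.56 for non-clustered members. It depends on how often members are read, which was in 9.40% of all pairs of an alternate and a cell. For C-type members this share was 44.8%, and for non-clustered members 56.4%. The overlap that these shares alone would give was not computed. For alternates, cells of the same area and layer overlapped about as much as cells of other groups, with means of 0.0545 and 0.0552. After thinning these means were 0.0523 and 0.0518. By cluster they were 0.0744 and 0.0712 for beta members, 0.0894 and 0.0789 for gamma alternates, and 0.106 and 0.115 for alpha alternates. After thinning, 62.8% of pairs shared no alternate. A member that is expressed but missed lowers the overlap, and how many were missed was not tested.

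**Figure D3:**
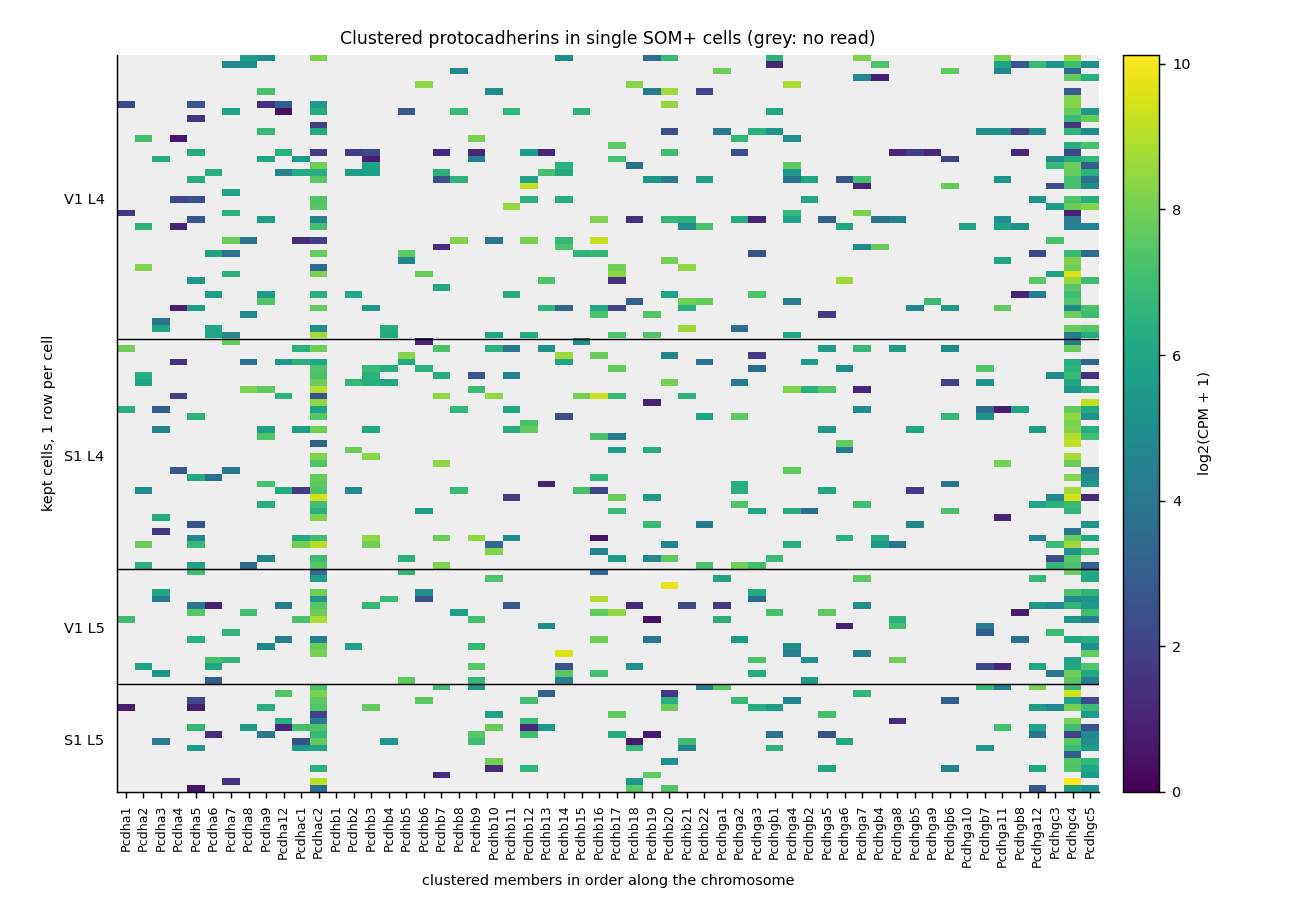
Level of the clustered members with 1 location in the annotation (columns, in order along the chromosome) in each kept cell (rows, grouped by area and layer), as log2(CPM + 1), with grey where there was no read. The columns of Pcdhac2, Pcdhgc4 and Pcdhgc5 are filled in 60 to 85 cells, and the reads of alternates are scattered over cells.

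Members that lie next to each other were seldom read together, as were other pairs of the same cluster. Neighbouring beta members were both read in a mean of 1.30 cells, against 1.28 for other beta pairs. For alpha alternates with 1 location in the annotation the means were 1.33 and 1.08 cells, and for gamma alternates 1.44 and 1.07. Pcdha10, Pcdha11 and Pcdha4-g were left out of the alpha pairs, so Pcdha9 and Pcdha12 counted as neighbours. These counts are small and carry no test. The 3 frequent C-type members were all read in 36 cells, any 2 of them in 44, 1 in 18 and none in 11. Pcdhac2 and Pcdhgc4 were read together in 59 cells, and 12 of the 13 cells with Pcdhac1 also had Pcdhgc4.

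Most non-clustered members were read in most cells, apart from Pcdh8, Pcdh15, Pcdh19, Pcdh20 and Pcdh12. Delta 1 members carry a conserved tail motif that binds protein phosphatase 1. Of these, Pcdh9 was read in 99 cells, Pcdh11x, which lies on the X chromosome, in 92, and Pcdh1 and Pcdh7 in 78 each. Of the delta 2 members, Pcdh10, known for recruiting the actin regulator Nap1, was read in 93 cells, and Pcdh17 and Pcdh18 in 79 each. Pcdh8, an activity-regulated member also called arcadlin, was read in 52 cells and Pcdh19, an X-linked epilepsy gene, in 35. Pcdh15, a member of the hair cell tip link, was read in 47 cells. Pcdh20 was read in 4 cells and Pcdh12, an endothelial member, in 2 with 7 counts in all, both named after their values were seen. In the cells that had a read, Pcdh9 was at a median of 72.4 RPKM, Pcdh8 at 48.9, Pcdh18 at 48.8, Pcdh11x at 27.1 and Pcdh1 at 21.4. Pcdh10 was at 13.7, Pcdh7 at 13.1, Pcdh17 at 8.46, Pcdh15 at 6.70 and Pcdh19 at 1.81 RPKM. Pcdh8 and Pcdh18 were thus at close levels where read, while Pcdh18 was read in more cells.

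Promoter windows, from 250 bases before to 50 after the transcript start, were matched in RefSeq (GRCm38.p6) for 9 of the 71 members. Those of Pcdh18 and Pcdh7 are shown because these are the 2 members called lower in L5, by the rule given with the comparisons. Capitals mark the GC box, GGGCGG or CCGCCC on either strand, which 35.7% of all 32851 windows of this length hold. Pcdh18 lies at chr3:49757267-49757566 on the reverse strand and Pcdh7 at chr5:57717831-57718130 on the forward strand.
Pcdh18: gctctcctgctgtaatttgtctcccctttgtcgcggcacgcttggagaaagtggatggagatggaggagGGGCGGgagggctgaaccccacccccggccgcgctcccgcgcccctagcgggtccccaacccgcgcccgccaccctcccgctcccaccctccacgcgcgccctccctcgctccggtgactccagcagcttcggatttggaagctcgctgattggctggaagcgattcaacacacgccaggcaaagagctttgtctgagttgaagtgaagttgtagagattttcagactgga
Pcdh7: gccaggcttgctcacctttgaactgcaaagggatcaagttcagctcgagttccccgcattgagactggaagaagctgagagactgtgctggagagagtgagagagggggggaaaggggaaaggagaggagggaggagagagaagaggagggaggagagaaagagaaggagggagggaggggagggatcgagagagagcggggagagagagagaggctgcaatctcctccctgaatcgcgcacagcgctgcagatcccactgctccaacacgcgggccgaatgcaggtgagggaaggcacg
The Pcdh18 window has 1 GC box, 23 CG dinucleotides and 63.0% G or C, and the Pcdh7 window has no GC box, 11 CG dinucleotides and 59.3% G or C. The median window of all genes has 7 CG dinucleotides and 52.7% G or C. Among the other windows, those of Pcdh10, Pcdh17 and Pcdh19 have 1 GC box each, and those of Pcdh8, Pcdh9, Pcdh15 and Pcdh20 have none. The TATA box, TATAAA or TTTATA, is found in the windows of Pcdh8 and Pcdh15 and in 13.6% of all windows.

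**Figure D4:**
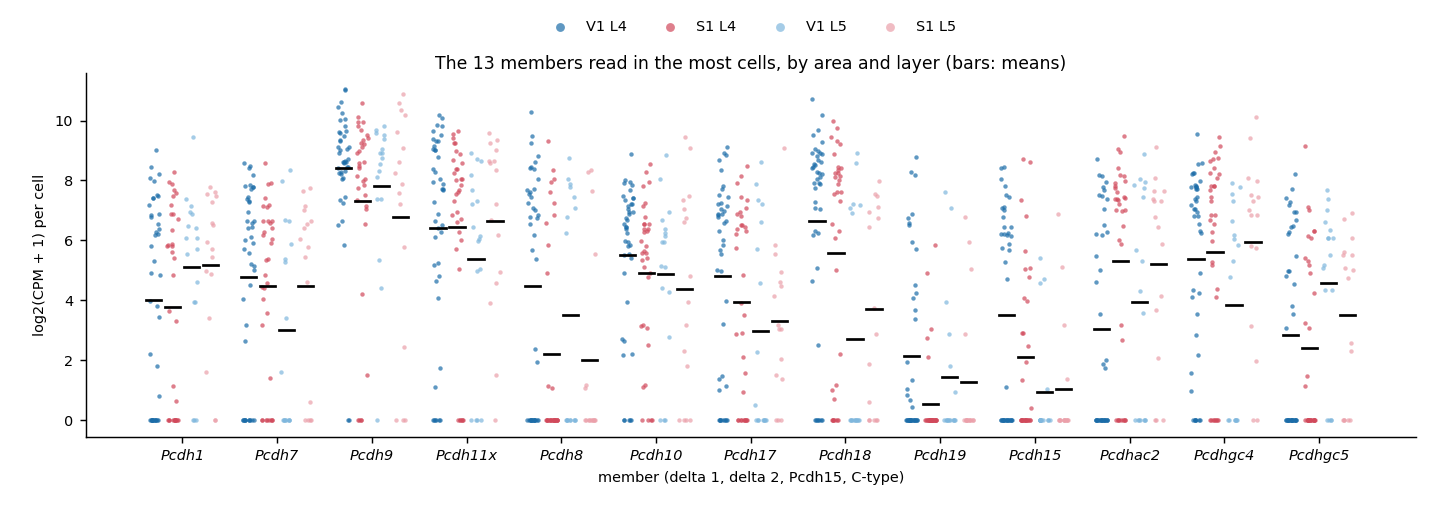
Level of the 13 members read in the most cells, in each kept cell, as log2(CPM + 1) (vertical axis), with 1 point per cell, colours for area and layer and black bars at the group means; the points at 0 are cells without a read. For Pcdh18 the means are 6.64 in V1 L4 and 5.58 in S1 L4, against 2.70 in V1 L5 and 3.72 in S1 L5.

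Group means were set on the scale of log2(CPM + 1), on which genes are not compared with each other. Pcdh9 was at 8.40 ± 2.22 in V1 and 7.33 ± 3.21 in S1 for L4, and at 7.83 ± 2.51 in V1 and 6.78 ± 3.95 in S1 for L5 (SD over cells). Pcdh11x was between 5.37 and 6.66 in all 4 groups and Pcdh10 between 4.36 and 5.51. For each of these 3 genes the SD over cells was larger than the difference between any 2 of its group means. Pcdhgc4 was at means of 5.37 in V1 and 5.61 in S1 for L4, and of 3.85 in V1 and 5.95 in S1 for L5. Pcdhgc5 was at 2.83, 2.42, 4.57 and 3.50 in the same order. Pcdh17 was at 4.82 and 3.94 in L4 of V1 and S1 and at 2.99 and 3.30 in L5.

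The comparison of areas asks whether labelled cells of the same layer differ between V1 and S1. A difference of means was called where it was at least 1 either way on the log2(CPM + 1) scale and larger than its SD over the recording days with at least 2 cells of each group. It was read against all 9993 genes with at least 32 counts in at least 10 kept cells, a filter that 28 members passed. Adding 1 to CPM shrinks the fold between low values. A difference of means also follows the share of cells with a read, so it can exceed the change of the pooled level.

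In L4, 1 of 28 members was called higher in S1 (3.57%), against 1.92% of all genes, and none was called lower, against 1.87%. The 1 member was Pcdhb3. In S1 it ran from 0 to 8.40 with a median of 0, and in V1 from 0 to 5.85 with a median of 0, so most cells of both areas had no read. Reads were found in 7 of 34 S1 cells (20.6%, 8.70 to 37.9%) and 5 of 42 V1 cells (11.9%, 3.98 to 25.6%). Its mean was 1.49 in S1 and 0.48 in V1, a difference of 1.01 (SD over 5 days 0.95). It was higher in S1 on 3 days, lower on 1 and equal on 1. As the mean of the differences within days, a value added after seeing the data, it was 0.66 and was not called. On that value 1 other member was called higher in S1, Pcdhac2 (2.71, SD 2.59), against 3.41% of all genes, and 2 were called lower, Pcdhb20 (-1.22, SD 0.63) and Pcdhb12 (-1.16, SD 0.9994), against 4.75%. No member was thus called in L4 both over all cells and within days.

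Larger differences in L4 varied more between days. Pcdhac2 ran from 0 to 9.49 with a median of 7.13 in S1 and from 0 to 8.72 with a median of 0.87 in V1. Reads were found in 25 of 34 S1 cells (55.6 to 87.1%) and 21 of 42 V1 cells (34.2 to 65.8%). Its difference of 2.28 was below its SD of 2.59, with higher means in S1 on 4 of 5 days. Pcdh19 was read in 5 of 34 S1 cells (14.7%) and 20 of 42 V1 cells (47.6%), and after thinning in 3 of 34 (8.82%) and 14 of 42 (33.3%). Its pooled level was 2.85 CPM (2.395 to 3.37) in S1 and 41.5 CPM (39.8 to 43.3) in V1. The difference of -1.59 had the same sign on 5 of 5 days but was below its SD of 1.85. Pcdh8 was read in 12 of 34 S1 cells and 26 of 42 V1 cells, with means of 2.20 and 4.47 and a difference of -2.26 (SD 4.27).

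The 5 delta 2 members all had lower means in S1 L4 than in V1 L4, with a median difference of -1.061, against 0.01 for all genes, and none was called. Beside Pcdh8 and Pcdh19, Pcdh18 differed by -1.061 (SD 2.34), Pcdh17 by -0.87 (1.85) and Pcdh10 by -0.60 (1.41). Pcdh9 differed by -1.07 (1.70), Pcdh15 by -1.40 (2.88), Pcdh7 by -0.31 (1.72), Pcdh1 by -0.21 (2.98) and Pcdh11x by 0.06 (4.30). None of these differences was larger than its SD over days. Among C-type members the differences were 0.71 for Pcdhac1 (SD 2.15), 0.23 for Pcdhgc4 (1.57), 0.04 for Pcdhgc3 (0.67) and -0.42 for Pcdhgc5 (2.06). The 2 alpha alternates that passed the filter, Pcdha5 and Pcdha9, differed by 0.17 and 0.07. Of the 4 gamma alternates, Pcdhga11 differed by -0.99 (SD 0.68), just under the limit of 1, and was read in 3 of 34 S1 and 9 of 42 V1 cells. Pcdhga4, Pcdhga12 and Pcdhga7 differed by -0.44, -0.25 and -0.22. The other beta members lay between -0.66 (Pcdhb20) and 0.32 (Pcdhb17).

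In L5, 3 of 28 members were called higher in S1 (10.7%), against 9.36% of all genes, and 1 was called lower (3.57%), against 3.47%. Both shares were close to those of all genes, whose median difference was itself 0.22. The member called lower was Pcdhb16. Pcdhb16 was read in 5 of 17 V1 cells (29.4%, 10.3 to 55.96%) with a highest value of 8.95 and in 0 of 16 S1 cells (0%, up to 20.6%). Its 1113 counts gave a pooled 57.7 CPM in V1. A count of 0 in S1 allows up to 0.155 CPM in the 16 cells sampled, by counting error alone. That limit does not cover the spread between cells. The difference of means was -2.07 (SD over 4 days 0.53), with day values of -2.48, -2.58, -1.98 and -1.43. In L4, 7 of 34 S1 cells and 5 of 42 V1 cells had a read of Pcdhb16, and the means differed by 0.23 (SD 2.14).

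Pcdhb12 showed the opposite arrangement, with reads in 5 of 16 S1 cells and 0 of 17 V1 cells. Its difference was 1.80 (SD 1.31), above 0 on 3 days and 0 on the fourth. In L4, 2 of 34 S1 cells and 6 of 42 V1 cells had a read, and the means differed by -0.54 (SD 0.9994). Pcdhb20 was read in 5 of 16 S1 cells and 1 of 17 V1 cells, and differed by 1.20 (SD 0.76), above 0 on 4 of 4 days. Each of these beta members rests on 5 or 6 cells with a read.

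Pcdh7, which binds protein phosphatase 1 and the protein SET, was the 1 non-clustered member called between areas in L5. It ran from 0 to 7.74 with a median of 5.92 in S1 and from 0 to 8.36 with a median of 1.61 in V1, and the cells of both areas overlapped over most of this range. Reads were found in 12 of 16 S1 and 9 of 17 V1 cells. The difference was 1.47 (SD 0.96), with day values of 1.99, 2.16, 0.46 and 0.36. Its pooled levels had overlapping intervals, at 80.3 CPM (76.3 to 84.4) in S1 and 73.8 CPM (70.0 to 77.7) in V1.

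Of the members not called in L5, Pcdhgc4 had the largest difference, 2.11 (SD 2.31), with reads in 14 of 16 S1 and 10 of 17 V1 cells. Pcdhac2 differed by 1.29 (SD 2.57), Pcdh11x by 1.29 (1.98), Pcdh18 by 1.01 (2.49), Pcdhga12 by 0.95 (0.80) and Pcdhga11 by 0.65 (0.90). On the other side were Pcdh8 at -1.52 (2.29), Pcdhb14 at -1.43 (2.43), Pcdhgc5 at -1.07 (2.3995) and Pcdh9 at -1.05 (2.11). Pcdh8 was lower in S1 on 4 of 4 days in L5 and on 4 of 5 days in L4. The remaining members lay between -0.63 (Pcdhgc3) and 0.52 (Pcdhac1), and Pcdh1 (0.08), Pcdh15 (0.11) and Pcdh19 (-0.14) differed least among the non-clustered ones.

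The comparison of layers asks how labelled cells of L5 differ from those of L4. In the first series, with 33 L5 and 37 L4 cells, 1 of 28 members was called higher in L5 (3.57%), against 6.10% of all genes, and 2 were called lower (7.14%), against 2.56%. The median difference over all genes was 0.17, and 0.28 after thinning. Within days, Pcdh9 was called lower as well (-1.45, SD 1.25), against 4.91% of all genes. All 3 members called over all cells were non-clustered, and no clustered member was called among the 18 that passed the filter.

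Pcdh18, a delta 2 member that binds the reelin adaptor Dab1, was lower in L5. It ran from 0 to 8.93 with a median of 0.62 in L5 and from 0 to 10.71 with a median of 7.93 in L4, so the ranges overlapped but the middle of the L5 cells lay near 0. It was read in 17 of 33 L5 cells (51.5%, 33.5 to 69.2%) and 31 of 37 L4 cells (83.8%, 68.0 to 93.8%), and after thinning in 14 of 30 (46.7%) and 31 of 37 (83.8%). Its pooled level was 88.5 CPM (85.6 to 91.5) in L5 and 270.0 CPM (265 to 275) in L4. The difference of means was -3.19 (SD over 4 days 2.77), with day values of -6.64, -1.08, -5.00 and -1.27. Within V1 it was -4.48, with reads in 6 of 17 L5 and 19 of 21 L4 cells. Within S1 it was -1.62, with reads in 11 of 16 L5 and 12 of 16 L4 cells, and there its SD over days was larger, at 2.79. Without recording day 3 it was -2.15 (SD 2.21) and without day 5 -2.87 (SD 3.16), and it was not called.

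Pcdh7 was also lower in L5. It ran from 0 to 8.36 with a median of 5.30 in L5 and from 0 to 8.59 with a median of 6.06 in L4. It was read in 21 of 33 L5 cells (63.6%, 45.1 to 79.6%) and 30 of 37 L4 cells (81.1%, 64.8 to 92.04%), and after thinning in 17 of 30 (56.7%) and 30 of 37 (81.1%). The difference was -1.19 (SD 1.10), with day values of -2.40, -1.01, -1.47 and -3.51. Within V1 it was -2.18 (SD 2.42), with reads in 9 of 17 L5 and 18 of 21 L4 cells, and within S1 it was -0.07 (SD 0.48), with reads in 12 of 16 cells of each layer. The difference between areas was not tested. The call was lost in 9 of 17 alternatives, which were each area alone, a pseudocount of 10 (-0.60), RPKM (-0.64), the L4 cells of both series (-0.91) and 4 others. The others were without recording day 3 (-0.80), without day 5 (-0.91), without the 2 cells with many low counts (-1.26, SD 1.27) and after thinning (-1.23, SD 1.40). The mean within days was -2.09 and was called.

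Pcdh1, a delta 1 member known from airway epithelium, was higher in L5. It ran from 0 to 9.45 with a median of 5.94 in L5 and from 0 to 9.01 with a median of 1.82 in L4. It was read in 28 of 33 L5 cells (84.8%, 68.1 to 94.9%) and 20 of 37 L4 cells (54.1%, 36.9 to 70.5%), and after thinning in 24 of 30 (80.0%) and 19 of 37 (51.4%). Its pooled levels had overlapping intervals, at 73.8 CPM (71.1 to 76.5) in L5 and 75.5 CPM (73.0 to 78.0) in L4, so more cells had it but the summed level was close. The difference of means was 1.96 (SD 1.53), with day values of 0.06, 3.70, 1.61 and 1.06. Neither area alone gave a call. Within S1 it was 2.20 (SD 2.35), above 0 on 3 of 3 days, and within V1 it was 1.76 (SD 2.16) over all cells but below 0 on both days with at least 2 cells of each layer. It was also not called with the L4 cells of the second series added (1.23, SD 1.53) or with a pseudocount of 10 (0.96, SD 1.03).

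**Figure D5:**
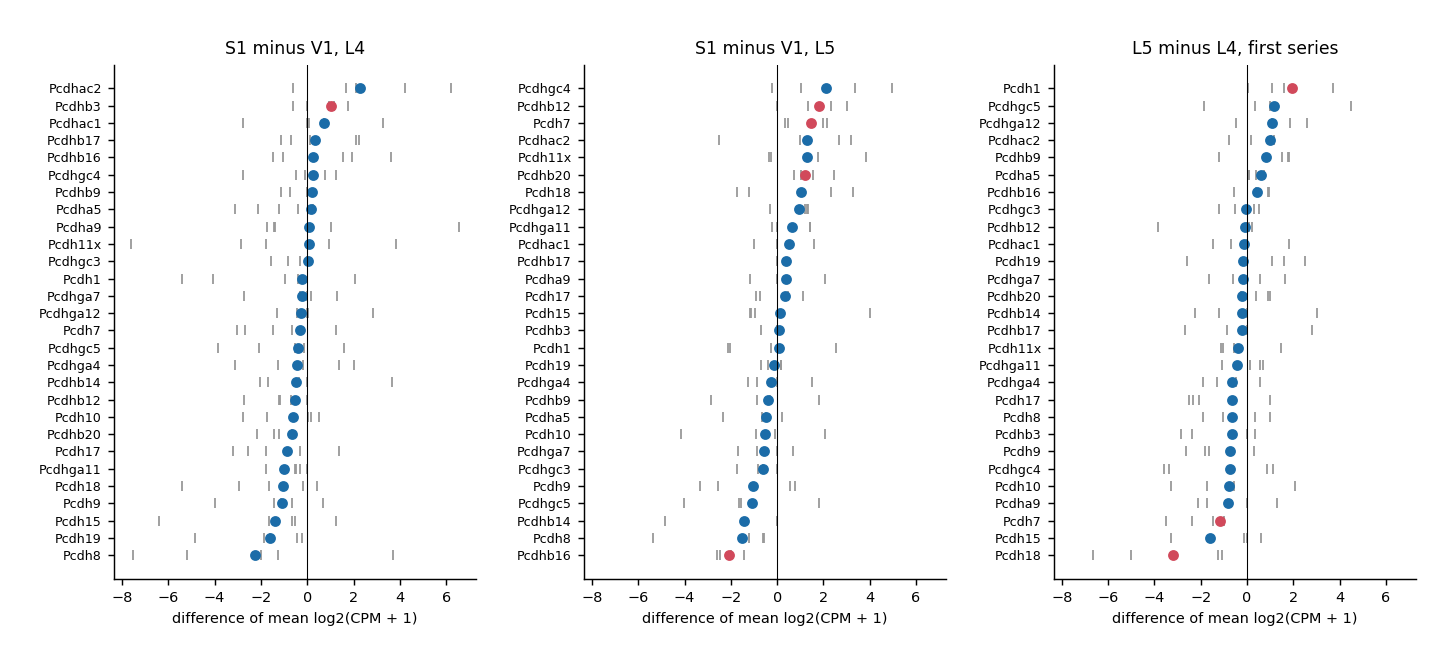
Difference of mean log2(CPM + 1) for the 28 members that passed the filter in each comparison (horizontal axis, difference; vertical axis, members in order of the difference), with blue dots for the difference over all cells, red where it was called, and grey ticks for each recording day. The red dots are Pcdhb3 in L4, Pcdhb12, Pcdh7, Pcdhb20 and Pcdhb16 in L5, and Pcdh1, Pcdh7 and Pcdh18 between layers.

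Of the 10 non-clustered members that passed the filter, 9 had lower means in L5 and 1 (Pcdh1) a higher one, with a median of -0.69. Pcdh15 differed by -1.60 (SD 1.74), with reads in 8 of 33 L5 and 18 of 37 L4 cells. Pcdh10 differed by -0.77 (2.26), Pcdh9 by -0.73 (1.25), Pcdh8 by -0.65 (1.31), Pcdh17 by -0.65 (1.66), Pcdh11x by -0.39 (1.22) and Pcdh19 by -0.18 (2.23). The 18 clustered members had a median of -0.17. Of these, Pcdhgc5 differed by 1.17 (SD 2.64), Pcdhga12 by 1.062 (1.32), Pcdhac2 by 0.98 (0.90), Pcdhb9 by 0.83 (1.46) and Pcdha5 by 0.60 (0.31). Pcdha9 differed by -0.83 (1.58) and Pcdhgc4 by -0.73 (2.58). The others lay between -0.66 (Pcdhb3) and 0.41 (Pcdhb16). Pcdha5 was read in 9 of 33 L5 and 5 of 37 L4 cells and was above 0 on 4 of 4 days. Within V1 its difference was 0.67 over all cells but below 0 on both days with at least 2 cells of each layer. Within S1 it was 0.58, above 0 on 2 of 3 days.

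Of 14 genes that control the promoters of the clusters, such as CTCF, cohesin and the silencing factor Smchd1, 12 passed the filter. None was called between areas in L4, with a median difference of -0.14. In L5, 3 were called higher in S1 and 1 lower, with a median of 0.34 against 0.22 for all genes, of which 9.36% were called higher and 3.47% lower. These were Smchd1 (2.38, SD 1.12), the cohesin subunit Stag1 (2.17, SD 1.12) and the histone methyltransferase Setdb1 (1.85, SD 0.77), and the cohesin subunit Smc1a (-1.30, SD 0.94). Between layers none was called, and the median was -0.20. Their summed level was between 522 and 815 CPM in the pooled groups.

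Of 22 genes whose products bind protocadherin tails or act beside them at the membrane, 19 passed the filter. None was called between areas in L4, and in L5 the planar polarity cadherin Celsr2 was called higher in S1 (1.78, SD 0.71) and Abi1, of the WAVE complex, lower (-1.41, SD 0.77). Between layers 4 were called higher in L5 and none lower, with a median of 0.65 against 0.17 for all genes, of which 6.10% were called higher and 2.56% lower. They were Wasf1 (2.93, SD 1.52) and Brk1 (2.20, SD 0.44) of the WAVE complex, the focal adhesion kinase Ptk2 (1.59, SD 1.38) and N-cadherin, Cdh2 (1.24, SD 1.20).

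Markers of other cells moved with some of these comparisons. Of all genes, 1.92% were called higher in S1 L4, 9.36% in S1 L5 and 6.10% in L5 against L4, and 3.47% were called lower in S1 L5. Of the 6 oligodendrocyte genes, 3 passed the filter, and 1 was called higher in each comparison: Mobp in S1 L4 (2.22, SD 1.69), Mbp in S1 L5 (2.66, SD 1.38) and Mbp in L5 against L4 (2.09, SD 1.88). The list summed to 0 to 3717 CPM per cell in V1 and 0 to 9510 in S1 for L4, and to 0 to 3870 in V1 and 0 to 5416 in S1 for L5. Of the 5 microglia genes, P2ry12 was called lower in S1 L5 (-2.07, SD 0.90), where it was read in no cell, and the list ran to 2764 CPM in V1 cells of L5 and to 725 CPM in those of S1. Pvalb, the fast-spiking marker, was called higher in S1 L5 (1.28, SD 0.43), with a pooled 11.8 CPM against 1.14 CPM in V1 L5. In L4 it was at a pooled 41.8 CPM in S1 and 11.4 CPM in V1. That difference of 1.52 (SD 2.13) was above 0 on 4 of 5 days and was not called. Of the oligodendrocyte precursor genes, Pdgfra was read in 2 cells and Olig1 in 16, and the precursor list ran to 397 CPM in S1 L4 and 192 CPM or less in the other groups. The endothelial genes summed to at most 5.24 CPM in the pooled groups, and no astrocyte gene was called. The part of these cells in the protocadherin differences was not tested.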

How the data were processed

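Single-cell libraries were sequenced by the authors, demultiplexed with bcl2fastq 2.20 and aligned with STAR 2.4.2a to the mm10 mouse genome, per the labels. The authors deposited a table of read counts per gene and cell and a table of RPKM, the latter per gene length and sequencing depth. The reads carry no molecular identifiers. The entries were summed by symbol, cells were kept by the 3 criteria given above, and counts were set as CPM and log2(CPM + 1), with a pseudocount of 1. Each area and layer counted as 1 sample, so no count model was fitted and no p-value was computed. Exact Poisson and Clopper-Pearson intervals (95%) were computed with SciPy 1.17.1 in Python 3.11.15, and TMM factors, as an alternative scaling, with edgeR 4.0.16. Cells were thinned to 250000 reads for shares and numbers of members. The members, lists and rules were chosen with earlier results of these data known. Every member past the filter (at least 32 counts in at least 10 kept cells) or read in at least 10 cells was named, and others are said to be named after their values were seen. Alternatives were other pseudocounts, filters, scalings and series, leaving out each recording day and, chosen after seeing the data, pairing by day and leaving out 2 cells with many low counts.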

Additional observations from a re-analysis of the deposited data

Results flagged for a closer look

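Pcdhb20, a beta cluster member, differed between S1 and V1 in opposite directions in the 2 layers. It was picked because its sign was the same on every L4 day and opposite on every L5 day, so the day counts are not support. In L4 the mean of S1 minus that of V1 was -0.66, below 0 on 5 of 5 recording days. This was under the limit of 1 and not called. In L5 it was 1.20, above 0 on 4 of 4 days, and was called. The L5 call was lost with a pseudocount of 10 (0.52), on RPKM (0.85) and without recording day 6 (0.80). As means within days the values were -1.22 and 1.45. The difference between the layers was not tested. It was read in 4 of 34 S1 and 9 of 42 V1 cells in L4, and in 5 of 16 S1 and 1 of 17 V1 cells in L5. Of all 9993 genes, 57 (0.570%) had opposite signs on every day of both layers.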

How the results depend on the processing

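The mean number of members read per cell stayed within the spread between cells under every alternative run (12.7 to 14.3), as did that of beta members (1.92 to 2.23). The count of members called depended on the setting. For alternatives other than pairing by day, the share of all genes called is not given, so these counts are not read as results about the family. For S1 against V1 in L4 it was 1 of 28, and 2 with TMM, 2 with a pseudocount of 0.1, 0 with a pseudocount of 10, 0 on RPKM, 0 after thinning, 4 in the first series alone, 8 in the second, 3 without the 2 cells with many low counts, which was chosen after seeing the data, and 0 to 5 when each recording day was left out. In L5 it was 4, and 2 with a pseudocount of 10, 2 on RPKM and 4 to 5 without each day. Between layers it was 3, and 1 with a pseudocount of 10, 4 in V1 alone, 1 in S1 alone, 2 on RPKM, 2 with L4 of both series, 2 without those 2 cells and 3 to 5 without each day. In L4, the 4 members called in the first series did not include Pcdhb3, and the 8 called in the second did. Each series alone has fewer days for the SD. The cause was not tested. No result changed sign among the called members. Pcdhb16 in L5 was called in all 12 alternatives, and Pcdhb3 in L4 in 9 of 19, with a range of 0.63 to 1.33. Pcdhb3 was not called without days 1, 3, 5, 7 or 9, Pcdh7 in L5 without day 4 (0.78) and Pcdhb20 in L5 without day 6 (0.80). Paired by recording day, as a replicate block added after seeing the data, 3 members were called in L4, none of them the 1 called over all cells, 4 in L5 and 4 between layers, with the same members as over all cells among them in the last 2 comparisons. The labels number no replicates across groups. A member without a read in a cell may have been missed at this depth.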
